A study of Mus musculus with 9 samples.

Results

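The potassium channel genes are the 78 genes with a probe whose RefSeq accession maps to a symbol starting with Kcn, among 16358 genes named on the array. Kcne2 and Kcnj13 were left out of the group. The 78 genes have 104 probes, and 22 genes have more than 1, of which the brightest on average stands for the gene. A further 18 Kcn symbols of the gene table, among them Kcna6, Kcnb2 and Kcnk9, have no matched probe and were not analysed here. All but 1 of the members encode a channel pore or a protein that assembles with one or acts on it. The exception, Kcnq1ot1, is a long noncoding RNA transcribed antisense to Kcnq1.

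Messenger RNA was measured in 1 colour (Cy3) on Agilent whole-genome mouse arrays in amygdala, hypothalamus and prefrontal cortex of wild-type male C57BL/6J mice aged 8 to 9 weeks. Control mice had free access to food (AD). Mice of the RFR group went without food and were fed freely in turn, a day at a time, and mice of the CR group received over the same 2 days a fixed part of what RFR mice ate on a feeding day. All groups were killed at 14:00 on day 8 under ether and perfused with saline, and each of the 9 arrays held RNA pooled from 4 mice, so each region and diet has 1 array. The labels place the amygdala and hypothalamus slices 1.5 to 2.5 mm posterior to bregma and the prefrontal cortex slice 2.5 to 3.5 mm posterior to it. Mouse prefrontal cortex lies anterior to bregma, so the stated side is in doubt and the name rests on the label and on the cortical markers given next. Levels are log2 signal minus the array's own 75th percentile, so a level of 0 is that percentile, and a level of 1 probe is not set against that of another.

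In their sums, the regions carried their markers. Summed over 8 hypothalamic genes (such as Hcrt, Pmch and Agrp), the linear level was 337 to 422 in hypothalamus, 9.93 to 13.5 in amygdala and 0.314 to 0.507 in prefrontal cortex. Over 6 cortical genes (such as Tbr1 and Slc17a7) it was 8.49 to 8.84 in prefrontal cortex, 2.98 to 3.57 in amygdala and 0.583 to 0.753 in hypothalamus, and over 5 amygdala genes 31.6 to 41.4 in amygdala against 10.5 to 14.0 elsewhere. Singly, the amygdala genes were divided (limma, adjusted p under 0.05). In amygdala 4 were higher and 1 lower than in hypothalamus, and 3 higher and 1 lower than in prefrontal cortex. The arrays lay on 3 slides, each with its own scan. Slide 1 held the AD arrays and the RFR prefrontal cortex, slide 2 the other 2 RFR arrays with CR hypothalamus and CR prefrontal cortex, and slide 3 only the CR amygdala, for which batch and diet cannot be told apart.

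Potassium channels let potassium leave the cell, which sets the resting potential of neurons, ends each action potential and spaces the next. Voltage-gated pores open on depolarization, inward rectifiers and 2-pore channels act near rest, and calcium- or sodium-activated channels follow earlier firing. Auxiliary and modifying subunits carry no current alone and change the gating or the place of the pores. Glia use inward rectifiers to take up the potassium that firing neurons release.

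Promoter stretches were read from RefSeq (GRCm38.p6) for 58 of the 78 members. The 250 bases before the start held a median of 8 CpG pairs in members and 6 in all 27025 promoters of the table, and their GC content had a median of 59.4% against 52.0%. The GC box letters GGGCGG, on either strand, occurred in 51.72% of the members' stretches and 32.94% of all. TATAAA occurred in 1.72% against 12.97%, CCAAT in 31.03% against 34.46%, and TGACGTCA in 0.0% against 1.62%, so the members' stretches hold GC boxes more often and TATAAA less often than the table as a whole. Sequences are given for 4 members that lead the region patterns described further on, 2 of them lowest in hypothalamus or highest in prefrontal cortex (Kcnj4, Kcnk4) and 2 highest in hypothalamus and lowest in prefrontal cortex (Kcnh8, Kcna5). Capitals mark GGGCGG or its reverse complement, and each line runs 5′ to 3′ on the gene's strand.
Kcnj4 (chr15:79505242-79505491, minus strand): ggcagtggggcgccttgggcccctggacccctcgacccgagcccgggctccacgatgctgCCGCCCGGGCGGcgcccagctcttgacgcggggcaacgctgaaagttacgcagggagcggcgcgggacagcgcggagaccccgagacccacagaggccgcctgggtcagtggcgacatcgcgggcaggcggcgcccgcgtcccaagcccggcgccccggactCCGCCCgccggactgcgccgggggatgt
Kcnk4 (chr19:6934516-6934765, minus strand): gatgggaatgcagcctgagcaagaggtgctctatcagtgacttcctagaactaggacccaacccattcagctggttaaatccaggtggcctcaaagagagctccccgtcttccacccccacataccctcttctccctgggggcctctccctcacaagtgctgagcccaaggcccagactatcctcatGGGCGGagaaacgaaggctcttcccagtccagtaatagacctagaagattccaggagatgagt
Kcnh8 (chr17:52602459-52602708, plus strand): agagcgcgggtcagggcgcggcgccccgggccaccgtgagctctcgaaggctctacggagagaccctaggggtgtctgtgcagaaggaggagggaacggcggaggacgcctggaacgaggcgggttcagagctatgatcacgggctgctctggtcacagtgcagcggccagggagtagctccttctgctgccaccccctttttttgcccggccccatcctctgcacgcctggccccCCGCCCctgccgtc
Kcna5 (chr6:126535556-126535805, minus strand): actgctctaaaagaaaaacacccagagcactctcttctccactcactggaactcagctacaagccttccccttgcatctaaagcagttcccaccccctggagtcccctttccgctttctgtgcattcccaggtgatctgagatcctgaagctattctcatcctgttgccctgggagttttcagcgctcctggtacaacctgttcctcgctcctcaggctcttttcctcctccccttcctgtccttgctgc
The Kcnj4 stretch holds 35 CpG pairs and 3 GC boxes, and that of Kcnh8 holds 20 CpG pairs and 1 box. Kcnk4 has 3 CpG pairs and 1 box, and Kcna5 has 3 CpG pairs and none of the 4 motifs. High and low CpG content thus both occur on each side of the region pattern. These matches describe letters in this window and are not measured binding sites.

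Of the 78 members, 69 passed the filter on low signal, 3 or more arrays well above background, and were fitted, and 55 were well above background on all 9 arrays. Not well above background on any array were Kcng3, Kcnj15, Kcnk5 and Kcnv2. Kcnd1, Kcne1 and Kcnj1 passed only on the CR amygdala array, Kcnj5 only on AD hypothalamus, and Kcnmb1 on 2 hypothalamus arrays. The counts that follow are over the 69 fitted genes and not over all members. Of these, Kcnh3, Kcnh7, Kcnq3, Kcnq5 and Kcnv1 were not well above background on any hypothalamus array. Kcnh8, Kcnn3 and Kcnn4 were so on no prefrontal cortex array, and Kcng4 in prefrontal cortex alone. They passed the filter through regions where they were higher, so their calls against the dim region are no support for the counts. Their p-values there use the signals as read and not the bounds on folds.

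Potassium channel genes were more often highest in prefrontal cortex and lowest in hypothalamus than the reverse. Against prefrontal cortex, 36 of the 69 fitted members were lower in hypothalamus (limma, adjusted p under 0.05), a share of 52.2% where 21.3% of all 12618 fitted genes were lower, and 13 members (18.8%) were higher against a background of 26.7%. Amygdala held 28 members (40.6%) below prefrontal cortex, background 10.2%, and 9 (13%) above it, background 12.1%. Against hypothalamus, 26 members (37.7%) were higher in amygdala, background 13.5%, and 9 (13%) lower, background 15.9%. The median difference of the members was -0.79 log2 units for hypothalamus minus prefrontal cortex (0.06 over all genes), -0.35 for amygdala minus prefrontal cortex (0.00) and 0.36 for amygdala minus hypothalamus (-0.06).

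With slide as a fixed term, 29 members were called between amygdala and hypothalamus, 27 between amygdala and prefrontal cortex and 48 between hypothalamus and prefrontal cortex, from 35, 37 and 49. Without the RFR pool the counts fell to 15 and 13 for the comparisons with amygdala, where the calls of Kcnh3 and Kcnj11 between amygdala and prefrontal cortex were among those lost, and to 39 for hypothalamus against prefrontal cortex. The call held in every alternative for 11 of 35, 11 of 37 and 35 of 49 members. Between hypothalamus and prefrontal cortex, the calls lost in 1 or more were among others those of Kcnab1, Kcnh2, Kcnip2, Kcnj12, Kcnj14, Kcnk6 and Kcnn2 (without the RFR pool), Kcnip3 (with the mean of all probes) and Kcnq3 (without the AD pool). The fit pools the spread of 9 arrays with 4 residual degrees of freedom, and the replicates of a region are pools on different diets.

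Set against both other regions, 25 members (36.2%; 8.67% of all genes) were highest in prefrontal cortex and 24 (34.8%; 11.1% of all genes) lowest in hypothalamus. Both held for 18 members (26.1%; 4.25% of all genes), with amygdala between, among them Kcna1, Kcna2, Kcnab2, Kcnab3, Kcnh3, Kcnh5, Kcnj3, Kcnj4, Kcnj9, Kcnk12, Kcnma1, Kcnn1, Kcnq5, Kcns1 and Kcnv1. The reverse order, with hypothalamus highest and prefrontal cortex lowest, held for Kcna5, Kcne1l and Kcnh8 (4.35%; 5.06% of all genes). Hypothalamus was highest for 7 members (10.1%; 13.9% of all genes), which are these 3 with Kcnip1, Kcnj10, Kcnh2 and Kcnn4, the last detected on 1 of 3 amygdala arrays. Prefrontal cortex was lowest for 9 members (13%; 10.2% of all genes), with Kcna5, Kcne1l and Kcnh8 among them. Kcns3 was the 1 member lowest in amygdala (1.45%; 1.13% of all genes).

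**Figure D1:**
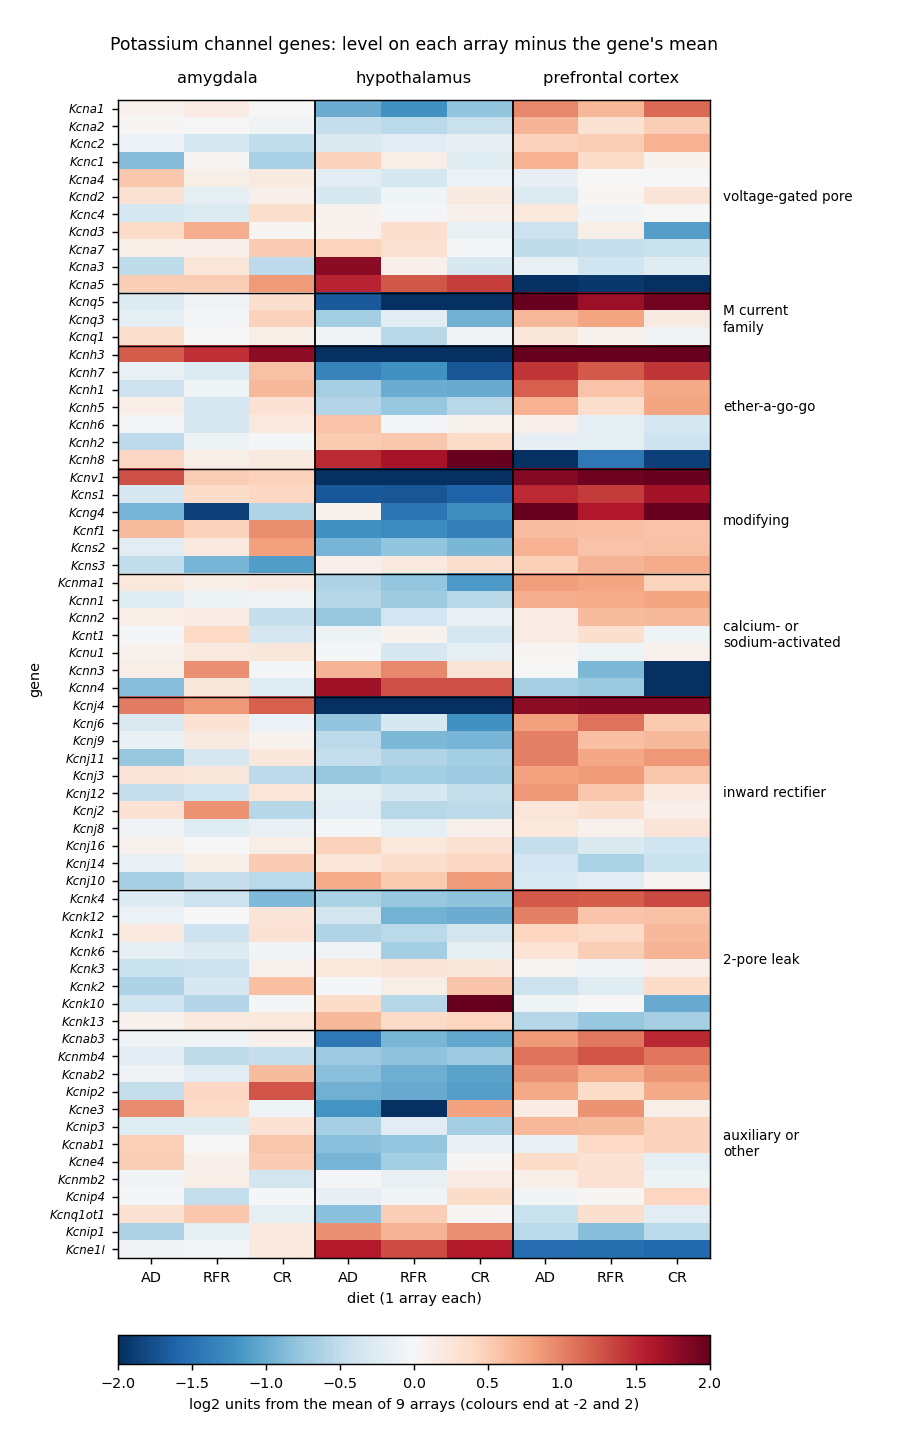
The levels of 66 of the 69 fitted potassium channel genes (rows, by class and, within a class, by the difference of hypothalamus from prefrontal cortex) on the 9 arrays (columns, by region and diet), coloured by log2 level minus the gene's mean. Most rows are blue in hypothalamus and red in prefrontal cortex, 36 of the 69 fitted members being lower in hypothalamus and 13 higher, and the few rows that run the other way include Kcna5, Kcnh8 and Kcne1l.

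Markers of neurons, in their sum, moved with this order. The summed level of 5 neuronal markers was 173 to 199 in prefrontal cortex, 113 to 134 in amygdala and 78.9 to 86.5 in hypothalamus, with 3 of 5 lower in hypothalamus than in prefrontal cortex (median -1.52). Oligodendrocyte markers ran the other way (140 to 187 in hypothalamus, 84.4 to 121 in amygdala, 46.7 to 90.0 in prefrontal cortex), with 5 of 5 higher in hypothalamus. Astrocyte markers summed to 133 to 158 in hypothalamus, 102 to 109 in amygdala and 111 to 119 in prefrontal cortex. Of 4 fitted, 2 were called higher in hypothalamus than in prefrontal cortex and 0 lower. Against the order of the sum, 2 (Gfap, 1.47, and Aqp4, 0.77) were called higher in amygdala than in prefrontal cortex and 0 lower. Between amygdala and hypothalamus, 1 (Aldoc) was called lower in amygdala and 0 higher. The part of cell type markers in the result was not tested. In tissue RNA, fewer cells of a type and less RNA per cell cannot be told apart.

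Among the inward rectifiers (Kcnj), 6 of 11 fitted members were lower and 3 higher in hypothalamus than in prefrontal cortex (median -0.87). Kcnj4, a strong inward rectifier of forebrain neurons, stood apart most. On the AD, RFR and CR arrays, the order used throughout, its level was 4.75, 4.56 and 4.90 in amygdala, 0.94, 0.60 and 1.03 in hypothalamus, and 5.49, 5.53 and 5.52 in prefrontal cortex. The 3 regions did not overlap, and hypothalamus was far below both others on every diet. The difference from prefrontal cortex was -4.66 log2 units (SE 0.12, adjusted p = 1.2e-06), a 25.2-fold lower level, and amygdala was 14.7-fold above hypothalamus (3.88, SE 0.12, adjusted p = 8.7e-06).

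Kcnj9 and Kcnj3, subunits of the G protein-gated channels that open when inhibitory receptors are active, shared the order. Kcnj9 was at 0.72, 1.04 and 0.93 in amygdala, 0.33, -0.04 and -0.07 in hypothalamus, and 1.88, 1.46 and 1.51 in prefrontal cortex. Kcnj3 was at -2.38, -2.40 and -3.16, then -3.39, -3.32 and -3.36, then -1.84, -1.78 and -2.09 in the same regions. No region overlapped another for either gene, and hypothalamus was 2.91-fold (Kcnj9) and 2.74-fold (Kcnj3) below prefrontal cortex (adjusted p = 0.00027 and 0.00042). Kcnj6 was 2.99-fold lower in hypothalamus (-1.58, SE 0.14, adjusted p = 0.00012) by its brighter probe, well above background on 1 of 3 hypothalamus arrays, but its other probe, above background on 2 of 9 arrays, gave 1.78, and the mean of both probes gave 0.10, so its direction rests on the choice of probe. The fourth subunit, Kcnj5, was well above background only on the AD hypothalamus array (-3.84), where the RFR and CR arrays of that region read -7.10 and -6.56. Its AD level was at least 2.07-fold above RFR and at least 2.36-fold above CR on single arrays, with no replicate.

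The pores of the ATP-sensitive channel, which closes when cell energy is high, differed in the size of their region differences. Kcnj11, the pore of neurons and beta cells, was at -2.40, -1.97 and -1.42 in amygdala, -2.12, -2.25 and -2.33 in hypothalamus, and -0.64, -0.88 and -0.78 in prefrontal cortex. Prefrontal cortex was above all other arrays, 2.77-fold over hypothalamus (adjusted p = 0.0017) and 2.24-fold over amygdala (adjusted p = 0.011). Kcnj8, the pore of vascular cells, spanned 0.32 to 0.82 over all 9 arrays, and hypothalamus minus prefrontal cortex was -0.22 (SE 0.09, adjusted p = 0.089). It was called lower in amygdala than in prefrontal cortex (-0.34), a call lost in 7 of 13 alternatives.

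Glial rectifiers ran towards hypothalamus. Kcnj10, the main potassium uptake channel of astrocytes, was at 3.29, 3.49 and 3.40 in amygdala, 4.70, 4.48 and 4.80 in hypothalamus, and 3.65, 3.73 and 4.01 in prefrontal cortex. Hypothalamus was above every other array, 2.40-fold over amygdala (adjusted p = 0.00051) and 1.82-fold over prefrontal cortex (adjusted p = 0.0012). Kcnj16, which forms channels with Kcnj10, was 1.65-fold higher in hypothalamus than in prefrontal cortex (adjusted p = 0.0018). Among the other rectifiers, Kcnj14 was 1.77-fold higher in hypothalamus than in prefrontal cortex (adjusted p = 0.0037). Kcnj12 was 1.82-fold lower in hypothalamus (adjusted p = 0.024), and Kcnj2 differed by -0.64 (SE 0.27, adjusted p = 0.089).

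**Figure D2:**
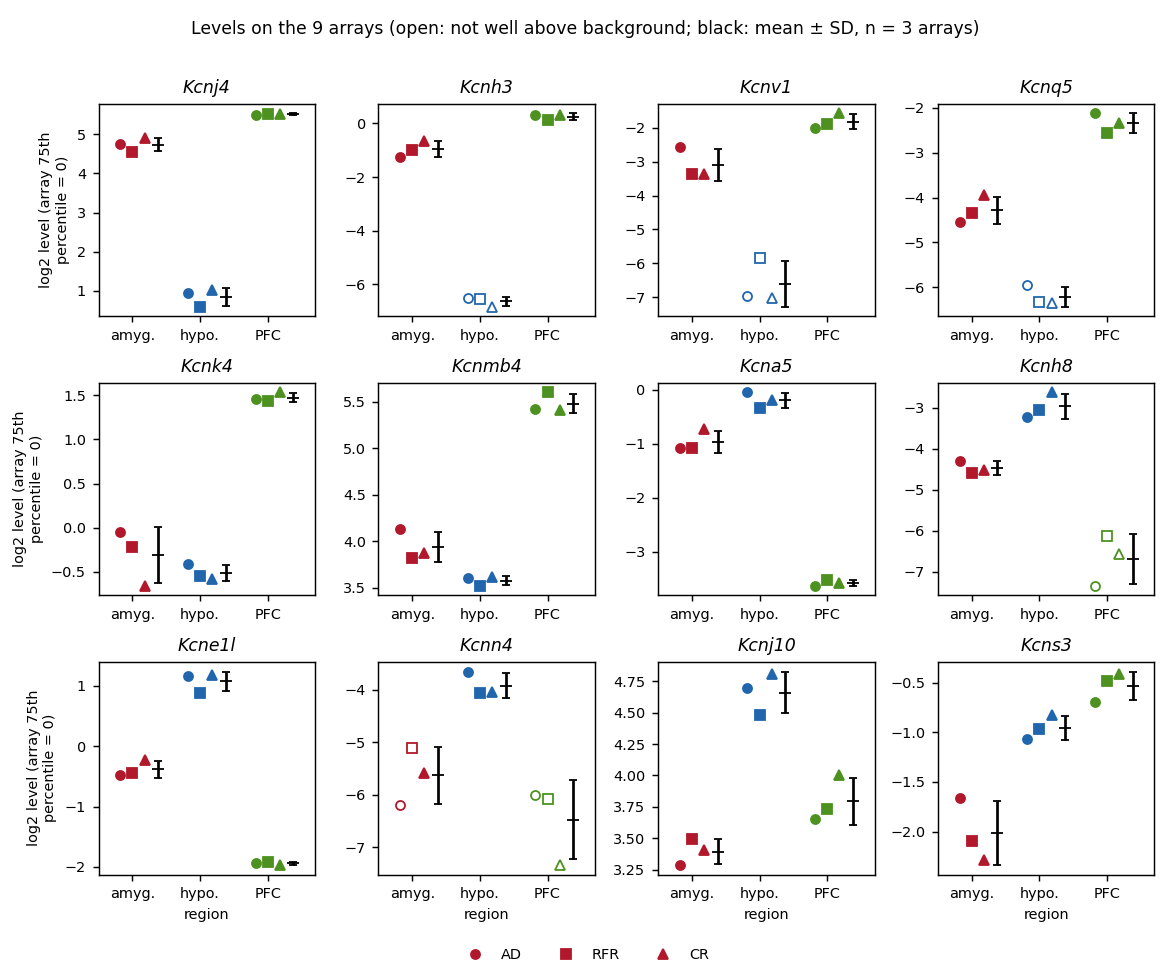
Log2 level of 12 members on the 9 arrays, by region (colour and x axis: amygdala, hypothalamus and prefrontal cortex, PFC) and diet (symbol), with the mean ± SD of the 3 arrays of a region in black. Open symbols mark arrays on which the gene was not well above background. Kcnj4 lies at 5.49 to 5.53 in prefrontal cortex and 0.60 to 1.03 in hypothalamus, and Kcna5 has its lowest level in prefrontal cortex.

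The ether-a-go-go family (Kcnh), voltage-gated pores that include slow and near-rest currents, differed in both directions, with 4 of 7 members lower and 2 higher in hypothalamus than in prefrontal cortex. Kcnh3, expressed mainly in forebrain neurons, was at -1.24, -0.98 and -0.66 in amygdala and 0.32, 0.12 and 0.32 in prefrontal cortex, and was not well above background on any hypothalamus array (-6.52, -6.54 and -6.84). Prefrontal cortex was at least 38.1-fold and amygdala at least 16.4-fold above hypothalamus, bounds that set the dim arrays at their lowest detectable signal. The limma fit used the hypothalamus signals as read (adjusted p = 1.2e-06 and 8.7e-06), so these p-values do not belong to the bounds. Prefrontal cortex was also 2.32-fold above amygdala (adjusted p = 0.0033), with no overlap.

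Kcnh8, of the same branch of the family (elk), ran the other way. Kcnh8 was at -3.22, -3.05 and -2.62 in hypothalamus and -4.29, -4.59 and -4.52 in amygdala, and was not well above background in prefrontal cortex (-7.35, -6.13 and -6.58). Hypothalamus was at least 5.27-fold above prefrontal cortex (adjusted p = 5.7e-05) and 2.83-fold above amygdala (adjusted p = 0.0075, which is lost without the CR pool). The 2 genes thus had opposite orders of the 3 regions, with amygdala between in both.

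Kcnh7 was at least 1.70-fold higher in prefrontal cortex than in hypothalamus (adjusted p = 0.00011), where no array was well above background. Only 4 arrays were, those of prefrontal cortex and 1 of amygdala, so it passed the filter on low signal through prefrontal cortex. Neither this p-value nor its place among members highest in prefrontal cortex or lowest in hypothalamus is support for those counts. Kcnh1 and Kcnh5, pores of the eag branch, were 3.31-fold and 2.38-fold lower in hypothalamus than in prefrontal cortex (adjusted p = 0.0022 and 0.00012). Kcnh2, the pore that repolarizes the heart, was 1.67-fold higher there (adjusted p = 0.0067). Kcnh6 differed by 0.35 (SE 0.17, adjusted p = 0.12).

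Modifying subunits (Kcnf, Kcng, Kcns, Kcnv), which are silent alone and assemble with Kcnb pores, had the lowest class median, -2.38 for hypothalamus minus prefrontal cortex, with 5 of 6 fitted members lower. Kcng4 is among the 5 and was detected in prefrontal cortex alone, so it is no support for this count or median. Kcnv1 was at -2.56, -3.36 and -3.38 in amygdala and -2.01, -1.90 and -1.58 in prefrontal cortex, and not well above background in hypothalamus (-6.96, -5.83 and -7.03). Prefrontal cortex was at least 8.99-fold (adjusted p = 6.2e-05) and amygdala at least 3.74-fold (adjusted p = 0.0007) above hypothalamus. Kcns1 was at -2.59, -1.88 and -1.84 in amygdala, -3.94, -3.96 and -3.86 in hypothalamus, and -0.75, -0.85 and -0.58 in prefrontal cortex. These are 3 separate levels, with prefrontal cortex 9.15-fold above hypothalamus (adjusted p = 1.4e-05) and 2.60-fold above amygdala (adjusted p = 0.0018).

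Kcng4 was well above background in prefrontal cortex alone (-2.92, -3.68 and -3.25), at least 3.28-fold above hypothalamus and at least 4.71-fold above amygdala. It passed the filter on low signal through these 3 arrays alone, so it had to differ. Its place among the members highest in prefrontal cortex is no support for that count. The same holds for the counts of members lower in hypothalamus or in amygdala than in prefrontal cortex. Kcnf1 split the regions otherwise, at 2.36, 2.18 and 2.65 in amygdala and 2.34, 2.33 and 2.29 in prefrontal cortex but 0.50, 0.45 and 0.35 in hypothalamus. It was 3.89-fold above hypothalamus in amygdala (adjusted p = 0.00013), and amygdala minus prefrontal cortex was 0.08 (SE 0.13, adjusted p = 0.73). Kcns2 was 2.82-fold below prefrontal cortex and 2.22-fold below amygdala in hypothalamus (adjusted p = 0.0013 and 0.0081), the call against amygdala being lost without the RFR pool, and amygdala minus prefrontal cortex was -0.35 (SE 0.22, adjusted p = 0.31).

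Kcns3 was lowest in amygdala, at -1.66, -2.09 and -2.29 against -1.07, -0.97 and -0.83 in hypothalamus and -0.69, -0.49 and -0.42 in prefrontal cortex. The amygdala arrays lay below all others, 2.08-fold under hypothalamus and 2.79-fold under prefrontal cortex (adjusted p = 0.0057 and 0.0017). Both calls were lost without the RFR pool, with differences of -1.03 and -1.42.

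The pores these subunits join were less uniform. Among Kcna, Kcnb, Kcnc and Kcnd genes, 5 of 13 fitted members were lower and 3 higher in hypothalamus than in prefrontal cortex (median -0.18). Kcna1, a pore of axons, was at 4.34, 4.41 and 4.25 in amygdala, 3.26, 3.04 and 3.46 in hypothalamus, and 5.22, 4.91 and 5.38 in prefrontal cortex. The 3 regions did not overlap, and the last 2 were 3.78-fold apart (adjusted p = 5.1e-05). Kcna2, which joins Kcna1 in axonal channels, was 1.97-fold lower in hypothalamus than in prefrontal cortex (adjusted p = 0.00037).

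Kcna5 had the largest difference between hypothalamus and prefrontal cortex among the fitted members of this class. Its level was -1.08, -1.08 and -0.73 in amygdala, -0.05, -0.33 and -0.20 in hypothalamus, and -3.62, -3.51 and -3.58 in prefrontal cortex. Prefrontal cortex was far below, 10.4-fold under hypothalamus (3.38, SE 0.13, adjusted p = 4e-06) and 6.10-fold under amygdala (adjusted p = 5.3e-05). Kcna7 was 1.64-fold higher (adjusted p = 0.012) and Kcnd3 1.48-fold higher (adjusted p = 0.017) in hypothalamus than in prefrontal cortex. The Kcna7 call was lost in 3 alternatives (normexp, and without the AD or the RFR pool) and that of Kcnd3 in 4 (normexp, no diet term, and without the AD or the CR pool).

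Fast-spiking neurons use Kcnc pores. Kcnc2 was 1.71-fold lower in hypothalamus than in prefrontal cortex (adjusted p = 0.0028). Kcnc1 differed by -0.26 (SE 0.24, adjusted p = 0.42), while its dimmer probes gave 0.065 and -1.05. The A-type pores, which delay the first spike, were Kcnd2 (-0.09, SE 0.18, adjusted p = 0.71) and Kcnd3. A dimmer Kcnd2 probe gave -0.57. Kcnc4, Kcna3 and Kcna4 did not pass the test between these regions, at 0.00, 0.79 and -0.18.

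The M current family (Kcnq) opens slowly near the threshold and is closed by muscarinic receptors. Kcnq5 was at -4.55, -4.34 and -3.95 in amygdala and -2.13, -2.56 and -2.34 in prefrontal cortex, and not well above background in hypothalamus (-5.95, -6.34 and -6.34). Prefrontal cortex was at least 6.29-fold above hypothalamus (adjusted p = 9.6e-06) and 3.83-fold above amygdala (adjusted p = 0.00063). Kcnq3, a main subunit of the neuronal M channel, was also lower in hypothalamus than in prefrontal cortex, by at least 1.48-fold (adjusted p = 0.0076). Kcnq1, a pore of heart and epithelium, differed by -0.31 (SE 0.13, adjusted p = 0.092).

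Calcium- and sodium-activated channels were divided, with 3 of 7 lower and 2 higher in hypothalamus than in prefrontal cortex. Kcnma1, the large-conductance pore, was at 0.17, 0.08 and 0.14 in amygdala, -0.65, -0.80 and -1.18 in hypothalamus, and 0.81, 0.75 and 0.41 in prefrontal cortex, 2.89-fold between the last 2 (adjusted p = 8.5e-05). Its neuronal auxiliary subunit Kcnmb4 was 3.73-fold lower in hypothalamus (adjusted p = 2.5e-05) and 2.90-fold lower in amygdala (adjusted p = 0.00024) than in prefrontal cortex. The small-conductance pores Kcnn1 and Kcnn2 were 2.57-fold and 1.87-fold lower in hypothalamus (adjusted p = 4.7e-05 and 0.015).

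Kcnn4, the intermediate-conductance pore of blood cells and epithelium, was at -3.65, -4.05 and -4.05 in hypothalamus, where all 3 arrays detected it. It was at least 2.73-fold above prefrontal cortex (adjusted p = 0.0012), where no array was well above background, and 1 of 3 amygdala arrays detected it. Kcnn4 passed the filter on low signal through its 3 hypothalamus arrays. Neither this p-value nor its place among the members highest in hypothalamus is support for that count. Kcnn3 was called higher in hypothalamus than in prefrontal cortex, by at least 1.51-fold (adjusted p = 0.0083), and in amygdala by at least 1.23-fold (adjusted p = 0.038). These calls were lost in 4 and 8 of the alternatives run, including normexp background correction and leaving out the CR or the RFR pool. The sodium-activated pore Kcnt1 differed by -0.26 (SE 0.10, adjusted p = 0.078), and Kcnu1 by -0.19 (adjusted p = 0.18).

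**Figure D3:**
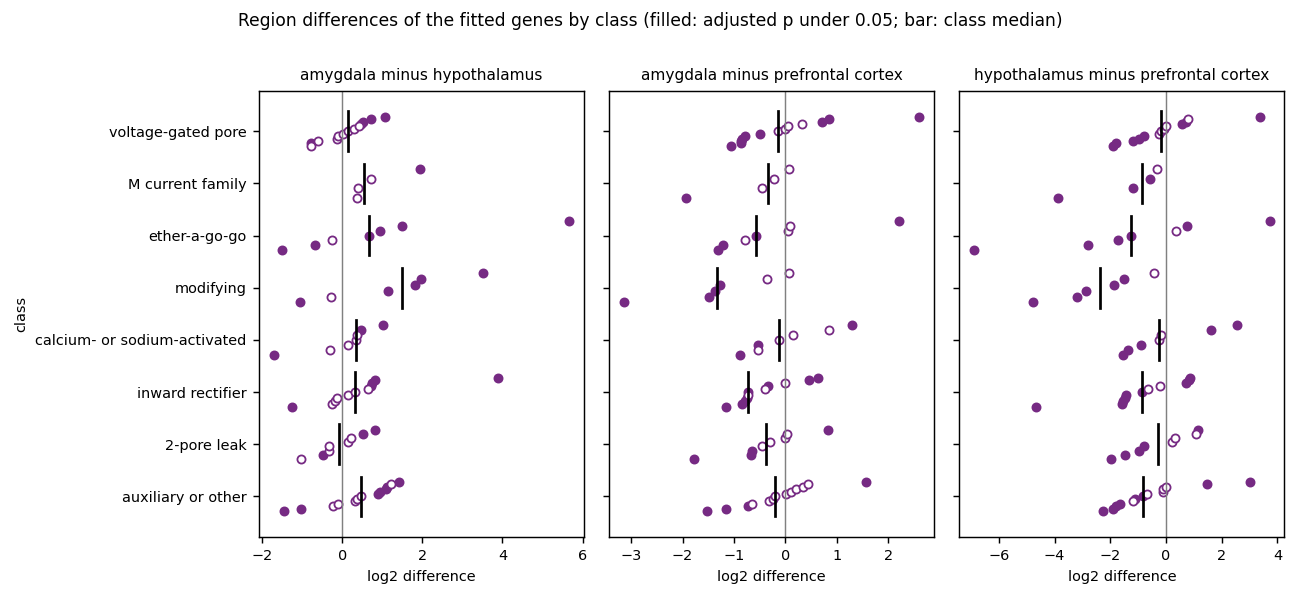
Log2 difference between regions (x axis, 1 panel a comparison) of each fitted member by class (y axis). Filled points passed limma at an adjusted p under 0.05 and bars are class medians. In hypothalamus minus prefrontal cortex, modifying subunits have the lowest median, -2.38, and every class has at least 1 filled point on the left. The modifying subunits include Kcng4, fitted only through its prefrontal cortex arrays.

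The 2-pore leak channels (Kcnk) set resting conductance. Kcnk4, a mechanosensitive member, was at 1.45, 1.44 and 1.53 in prefrontal cortex, -0.41, -0.55 and -0.58 in hypothalamus, and -0.05, -0.22 and -0.66 in amygdala. Prefrontal cortex was 3.96-fold above hypothalamus (adjusted p = 5e-05) and 3.43-fold above amygdala (adjusted p = 0.0003), and the other 2 regions overlapped. Of the 8 fitted members, 4 were lower (Kcnk1, Kcnk4, Kcnk6 and Kcnk12) and 1 higher in hypothalamus than in prefrontal cortex. The higher one, Kcnk13, a channel of microglia, was at 0.36, 0.10 and 0.15 in hypothalamus and -0.86, -1.04 and -0.95 in prefrontal cortex, 2.22-fold apart (adjusted p = 0.00017). Kcnk3, an acid-sensitive leak channel, was 1.40-fold lower in amygdala than in hypothalamus (adjusted p = 0.036), a call lost with no filter on dim genes and without the AD or the RFR pool.

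Auxiliary subunits had 6 of 13 fitted members lower and 2 higher in hypothalamus than in prefrontal cortex. The Kcnab subunits, which join Kcna pores, were lower throughout, 4.81-fold for Kcnab3, 3.50-fold for Kcnab2 and 1.77-fold for Kcnab1 (adjusted p = 2.8e-05, 0.00033 and 0.012). The Kcnip proteins, calcium sensors that join Kcnd pores, were divided. Kcnip2 and Kcnip3 were 3.15-fold and 2.16-fold lower in hypothalamus (adjusted p = 0.007 and 0.0035), although a dimmer Kcnip3 probe gave 0.39. Kcnip1 was 2.78-fold higher there (adjusted p = 0.00059), and Kcnip4 differed by -0.09 (SE 0.14, adjusted p = 0.61).

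Kcne1l, a single-span regulatory subunit, was at -0.48, -0.44 and -0.22 in amygdala, 1.17, 0.89 and 1.18 in hypothalamus, and -1.94, -1.92 and -1.97 in prefrontal cortex. The 3 regions formed separate levels, with hypothalamus 8.10-fold above prefrontal cortex (3.02, SE 0.11, adjusted p = 3.7e-06) and 2.75-fold above amygdala (adjusted p = 0.00022). Kcnmb1, the large-conductance subunit of smooth muscle, was well above background on 2 of 3 hypothalamus arrays and on no other, at least 1.91-fold over amygdala and at least 1.63-fold over prefrontal cortex, and was not fitted.

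Other genes of potassium handling differed both ways. Of 31 listed partners, 27 had a probe and 24 were fitted, of which 10 (41.7%; 21.3% of all genes) were lower and 6 (25%; 26.7% of all genes) higher in hypothalamus than in prefrontal cortex (median -0.23). Abcc8, the sulfonylurea receptor that joins Kcnj11, was lower with it (-1.003, adjusted p = 0.00016), as was Abcc9, the partner of Kcnj8 (-0.32, adjusted p = 0.032). Dpp6, a Kcnd partner, was higher (1.56, adjusted p = 0.0002). The hyperpolarization-activated channel Hcn3 was higher as well (1.27, adjusted p = 0.00047). Dlg2, a scaffold of Kcna clusters, was lower (-1.85, adjusted p = 0.00027).

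Diets were first compared over the 3 regions. No member was called for CR minus AD, RFR minus AD or CR minus RFR by limma at an adjusted p under 0.05, where 0.0%, 0.0159% and 0.0159% of all fitted genes were called. At an unadjusted p under 0.05 there were 8, 8 and 9 of 69 members, against 16.5%, 6.16% and 14.8% of all genes. The smallest adjusted p of a member was 0.17, 0.62 and 0.15. The 3 arrays of a diet come from 1 pool of mice, so these p-values are too small.

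Kcnk2, a leak channel opened by stretch, heat and polyunsaturated fatty acids and closed by receptor signalling, had the smallest adjusted p for CR minus AD among members. Its level was -2.90, -2.62 and -1.68 in amygdala, -2.31, -2.18 and -1.72 in hypothalamus, and -2.72, -2.54 and -1.92 in prefrontal cortex on AD, RFR and CR. In each region the CR array was highest, then RFR, then AD. In no region did the CR array share a slide with the AD array. CR minus AD over the regions was 0.86 (limma, SE 0.14, adjusted p = 0.17), higher in 3 of 3 regions by 1.22, 0.58 and 0.79. CR minus RFR, which shares the CR arrays, was 0.67 (SE 0.14, adjusted p = 0.16). Over 14 fits the estimate of CR minus AD lay between 0.54 and 1.01 and its adjusted p between 0.043 and 0.8, so it did not hold past the threshold in the fit used here.

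The fit without amygdala was the 1 alternative that called members for CR minus AD. It called 8 of 69 (11.6%), where 9.8% of all 12618 genes were called. Of the 8, Kcnk2 (0.69), Kcnd2 (0.51), Kcnip4 (0.51) and Kcnn2 (0.56) were higher in CR and Kcnc1 (-0.67), Kcnk12 (-0.52), Kcnma1 (-0.47) and Kcnj9 (-0.39) lower, with adjusted p from 0.043 to 0.049. In that fit both AD arrays lay on slide 1 and both CR arrays on slide 2, and the effects of slide and of diet cannot be told apart. Leaving out hypothalamus or prefrontal cortex gave 0 members. Other probes of the called members were divided for CR minus AD in hypothalamus and prefrontal cortex. The other probe of Kcnd2 gave -0.05 and -0.52, and that of Kcnn2 -0.06 and 0.01. For Kcnc1, 1 other probe gave 0.29 and 0.42 and another -0.22 and -0.185. The other Kcnip4 probe gave 0.47 and 0.61.

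Kcnt1 and Kcnd3 had the smallest adjusted p for CR minus RFR, 0.15 for each. Kcnt1 was at 3.80, 4.24 and 3.51 in amygdala, 3.73, 3.91 and 3.48 in hypothalamus, and 3.99, 4.17 and 3.75 in prefrontal cortex. Kcnd3 was at -3.09, -2.75 and -3.44, then -3.38, -3.12 and -3.62, then -3.90, -3.35 and -4.57. By the probes used, both genes were highest on RFR and lowest on CR in all 3 regions, with CR minus RFR of -0.52 (SE 0.10) for Kcnt1 and -0.80 (SE 0.15) for Kcnd3. The other Kcnt1 probes also had CR below RFR in all 3 regions. For 1 of them, CR minus AD in amygdala was 0.026. For the other, well above background on 5 arrays, RFR minus AD was -0.327 in hypothalamus and -0.188 in prefrontal cortex.

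Directions shared by the 3 regions were counted for the 55 members above background on all arrays. CR was above AD in 3 of 3 regions for 12 members (21.8%; 12.3% of all genes) and below it for 5 (9.09%; 25.4% of all genes). CR was above RFR for 16 (29.1%; 22.3%) and below for 7 (12.7%; 24.5%). RFR was above AD for 6 (10.9%; 10.7%) and below for 9 (16.4%; 16.8%), close to the background in both directions. The comparisons share arrays, and the 3 regions of a diet share their mice. No AD array shared a slide with a CR array.

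**Figure D4:**
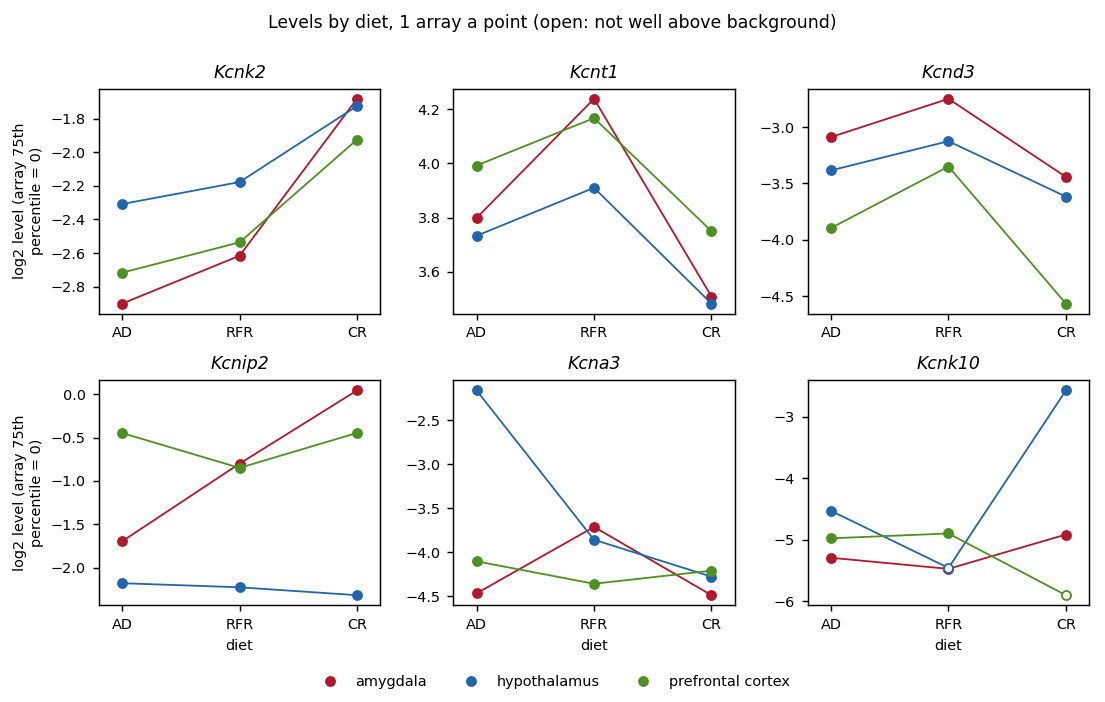
Log2 level of 6 members by diet (x axis) in each region (colour), 1 array a point, with lines joining the arrays of a region and open points not well above background. Kcnk2 is highest on CR in all 3 regions, Kcnt1 and Kcnd3 peak on RFR, and Kcnip2, Kcna3 and Kcnk10 each differ in 1 region.

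Within a region each diet has 1 array, so differences are given without a test, and a gene is counted at 1 log2 unit or more if both arrays were well above background. In amygdala, 5 of 66 members passed for CR minus AD (7.58%; 3.26% of all genes). Kcnip2 read -1.69, -0.80 and 0.04, lowest on AD and highest on CR with a difference of 1.74, while in the other regions it stayed within -2.31 to -2.18 and -0.85 to -0.45. Kcnk2 (1.22), Kcnh1 (1.06) and Kcns2 (1.03) were higher on CR, and Kcne3 (-1.03) lower. The other probe of Kcns2 gave -0.11, that of Kcne3 0.62 and that of Kcnh1 0.75.

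Against RFR, 1 of 65 amygdala members passed for CR (1.54%; 2.16% of all genes), Kcnj2 at -1.46, and none of 65 for RFR minus AD (1.47% of all genes). In CR minus AD of amygdala the median of all genes was -0.11, and 0.01 on the authors' scaling. The CR amygdala array had a slide of its own, and markers of other cells differed on it: the median of CR minus AD in amygdala was 0.88 over 3 microglial, 0.57 over 5 oligodendrocyte, 0.46 over 4 endothelial and 0.31 over 5 striatal markers, 0.01 over 5 cortical and -0.47 over 5 amygdala markers. Their part in these differences was not tested.

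In hypothalamus, 3 of 60 members passed for CR minus AD (5.0%; 1.34% of all genes) and 2 of 58 for RFR minus AD (3.45%; 0.691%). Kcna3, a pore of lymphocytes and some neurons, read -2.16, -3.86 and -4.28 there and -4.49 to -3.71 on the 6 arrays of the other regions. The AD hypothalamus array stood above all others, and both differences, -2.12 for CR and -1.70 for RFR, rest on it. This array lay on slide 1, and the RFR and CR arrays of hypothalamus on slide 2. Kcnk10, a stretch-sensitive relative of Kcnk2, read -4.53, -5.46 and -2.57, a difference of 1.96 for CR minus AD, and its CR level was at least 4.98-fold above RFR, where it was not well above background. Kcnmb1 differed by -1.01 for CR minus AD, and Kcnq1ot1 by 1.33 for RFR minus AD.

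CR and RFR hypothalamus shared a slide, and between them none of 57 members passed (0.528% of all genes). In prefrontal cortex none of 65 passed for CR minus AD (1.13% of all genes) and none of 66 for RFR minus AD (0.971%), the pair on 1 slide. For CR minus RFR 1 of 65 passed (1.54%; 0.819%), Kcnd3 at -1.22. With normexp background correction, Kcnip2 and Kcnh1 in amygdala and Kcna3 and Kcnq1ot1 in hypothalamus stayed past 1 log2 unit, and Kcnk2, Kcns2, Kcne3, Kcnj2, Kcnk10, Kcnmb1 and Kcnd3 did not.

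**Figure D5:**
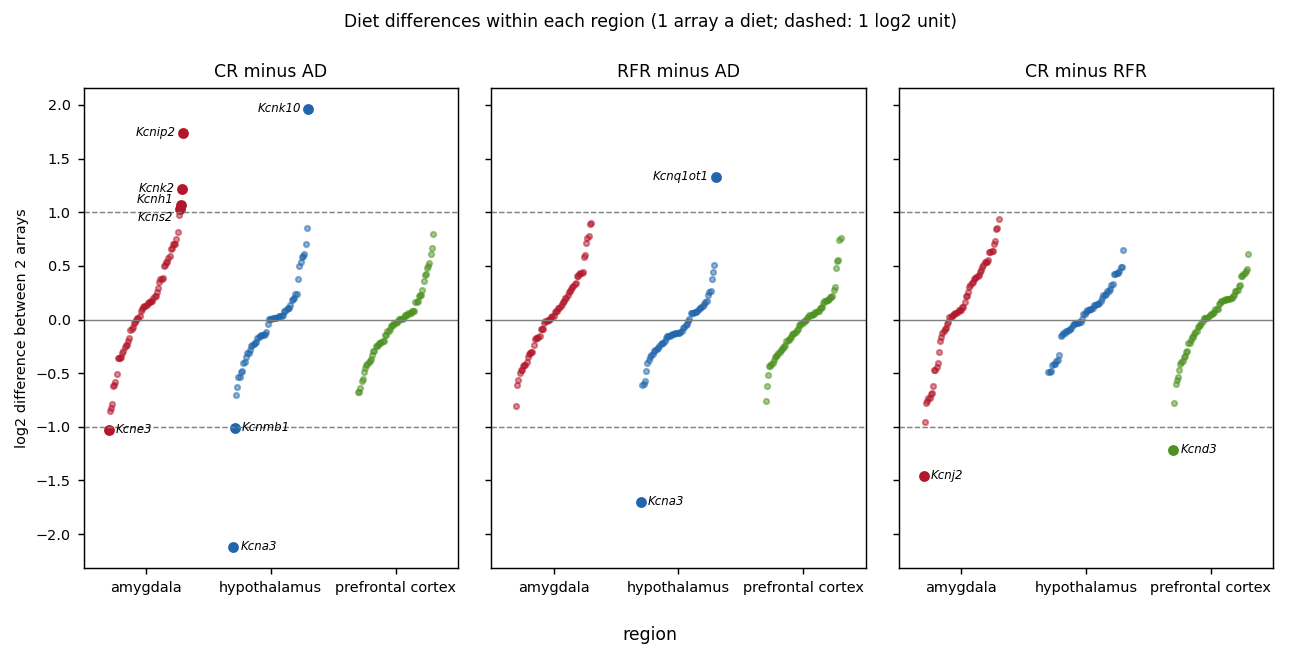
Log2 difference between the 2 arrays of each diet comparison (panels) within each region (x axis and colour) for the members well above background on both arrays, 1 point a gene, ordered by value. Dashed lines mark 1 log2 unit. Named points pass it: 5 in amygdala and 3 in hypothalamus for CR minus AD, 2 in hypothalamus for RFR minus AD, and 1 each in amygdala and prefrontal cortex for CR minus RFR.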

How the data were processed

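The scanner files come from Agilent Feature Extraction 9.5.1.1, per the file headers. The processed signal that the authors deposited is an intensity, background-subtracted within an array and not scaled between arrays, per the file headers. The deposited quality columns are flags of another kind (other than a measurement). The authors' deposited value table holds a ratio to the AD array of the region, as 99.2% to 99.3% of its values lay within 0.01 log2 units of that ratio after 1 constant per array.

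Here, the 75th percentile of each array's 43379 noncontrol spots was subtracted from log2 processed signal, and 25958 to 30199 of them were well above background. Outliers were dropped and repeated spots averaged. The number of arrays limits the precision. Probes were named by RefSeq accession (22951 of 41174 matched; gene table of assembly GRCm38.p6). Regions and diets were compared with limma 3.58.1 (R 4.3.3; region plus diet) over 12618 genes well above background on at least 3 arrays with a value on at least 6, with Benjamini-Hochberg adjustment. Where a group was not well above background, folds are bounds that set each such array at the higher of its lowest detected signal and the gene's own. Class, partner and marker lists, the members and the alternatives were chosen with earlier results of these data known. Named are the leading members of each comparison and class, and channels fixed by name for their known roles. The normexp alternative used median spot signals (offset 50). Python 3.11.15, numpy 2.4.6 and pandas 2.3.3 were used. The results of a few genes are not reported here.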

Additional observations from a re-analysis of the deposited data

How the results depend on the processing

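The counts of called members stayed within 1.5 times for hypothalamus minus prefrontal cortex (49) under every alternative, 39 to 53 when a diet pool or the CR amygdala array was left out. For amygdala minus hypothalamus (35) leaving out pools or that array gave 15 to 35 and for amygdala minus prefrontal cortex (37) 13 to 35, the lowest values without the RFR pool, and other alternatives stayed within 1.5 times. For CR minus AD (0) leaving out a region gave 0 to 8, and for RFR minus AD and CR minus RFR 0 to 0. Of 1547 refits of the called single results, 1357 kept the call, 188 lost it and 2 reversed. The most losses came without the RFR pool, 54 of 121. The reversed values were Kcnj6 with the mean of all probes (-0.26 for amygdala minus hypothalamus and 0.10 for hypothalamus minus prefrontal cortex). Kcnd3, not called for CR minus AD, moved from -0.42 to 0.002 with slide as a fixed term, and the cause was not tested. Within regions, normexp gave 2 members for CR minus AD in amygdala (from 5), 0 for CR minus RFR in amygdala (from 1), 1 for CR minus AD in hypothalamus (from 3) and 0 for CR minus RFR in prefrontal cortex (from 1). The authors' table gave 0 for CR minus RFR in amygdala and in prefrontal cortex. The mean of all probes gave 3 for CR minus AD in amygdala, 1 for RFR minus AD in amygdala (from 0) and 1 for CR minus RFR in hypothalamus (from 0). With no filter on dim genes, which admits signals near background, CR minus AD gave 8 in amygdala, 7 in hypothalamus and 3 in prefrontal cortex, RFR minus AD gave 2, 6 and 3, and CR minus RFR gave 4, 4 and 5. The labels carry no replicate numbers. Region comparisons held the diet pool as a term in the fit, and without it 112 of 121 called results kept the call and 9 lost it. Leaving out the CR amygdala array was chosen after seeing the data. Signal near background limits Kcnh7, Kcnn3, Kcnn4, Kcnq3 and Kcnk10.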
